A study of Mus musculus with 2 samples.

Results

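The mouse miRNAs mmu-miR-219a-2-3p and mmu-miR-338-5p, of the oligodendrocyte lineage, were both lower on the array of cuprizone-fed brain than on that of control brain. miR-219a-2-3p kept 35.3% of its control signal, a 2.83-fold lower value. miR-338-5p kept 62.7%, a 1.595-fold lower value. The samples were 1 array of brain RNA of male C57BL/6 control and 1 array of male C57BL/6 fed cuprizone (CPZ), as 0.2% of the diet during 6 weeks. Feeding CPZ, which binds copper, leads to the death of oligodendrocytes and to loss of myelin, and according to the methods the control mice were age-matched and kept on normal chow. The labels name the tissue as cerebellum and the methods as cerebrum, and no source used here tells if the RNA on an array was that of a single mouse or pooled. With 1 array per condition, the differences have no replicate error and no p-value, and describe these 2 arrays.

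Both miRNAs were taken from the miRNAs that the study lists as lower after CPZ, so they were chosen for the very fold changes described here. The deposited table numbers its probe sets without naming them. Each miRNA was located as the probe sets whose difference between the arrays and whose volume (the square root of the product of both log2 values) equal the listed ones within 0.0002. That procedure found the 2 members among 69 miRNAs located in all, at 14 of 36249 probe sets. miR-219a-2-3p was located at 7 probe sets and miR-338-5p at 7, with identical values within each set, so each miRNA was counted once. The nearest probe set that did not match lay 0.82 from miR-219a-2-3p and 0.33 from miR-338-5p, in log2 ratio or in volume, far outside the tolerance. The 7 probe sets of a member are not repeat measurements, because none of them differed from the others in any digit.

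A miRNA is cut from a hairpin precursor and guides the silencing complex to mRNAs that match its seed, the bases 2 to 8. miR-219 and miR-338 are induced when oligodendrocyte precursors stop dividing and begin to make myelin, and they repress genes that keep precursors cycling, among them Pdgfra, Sox6 and Hes5. The best described activity is that of miR-219a-5p and miR-338-3p, which are the opposite arms of the hairpins that give miR-219a-2-3p and miR-338-5p. In adult brain these miRNAs are used as markers of mature oligodendrocytes.

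The precursors are shown because each member is one arm of a hairpin whose other arm is the better known regulator. The sequences are from RefSeq on GRCm38.p6, 5′ to 3′, with mature arms that the RefSeq table lists in capitals. Mir219a-2 lies on the minus strand at chr2:29845631-29845727, and its capitals mark miR-219a-5p, with miR-219a-2-3p cut from the 3′ side of the loop. The table also lists miR-219a-5p under Mir219a-1, a gene on another chromosome. Mir338 lies on the minus strand at chr11:120014765-120014862, and its capitals mark miR-338-5p first and miR-338-3p second.
Mir219a-2: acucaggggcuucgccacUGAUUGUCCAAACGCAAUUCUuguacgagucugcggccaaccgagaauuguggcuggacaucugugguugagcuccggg
Mir338: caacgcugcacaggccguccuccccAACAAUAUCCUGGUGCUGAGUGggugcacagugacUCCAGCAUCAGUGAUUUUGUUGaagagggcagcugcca

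The mature sequences of the arms are set out next, with the seed in capitals, so that the member miR-338-5p can be read against the opposite arms of both hairpins.
miR-338-5p: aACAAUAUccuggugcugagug
miR-338-3p: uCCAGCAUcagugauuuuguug
miR-219a-5p: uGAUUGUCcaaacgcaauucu
The 3 seeds differ from each other, so the arms match different sites in mRNAs. Of 1679 mature mouse miRNAs in the RefSeq table, 0 others carry the seed of miR-338-5p. The same count is 0 for the seed of miR-338-3p and 0 for that of miR-219a-5p. In the predicted lowest-energy fold of Mir338, 20 of the 22 bases of miR-338-5p and 19 of the 22 bases of miR-338-3p were paired. In that of Mir219a-2, 17 of the 21 bases of miR-219a-5p were paired. GC content was 55.7% for the Mir219a-2 hairpin and 56.1% for Mir338.

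The genes of both members also share an arrangement that the choice of members did not use. Mir219a-2 overlaps Mir219b, a miRNA gene on the opposite strand, by 65 bases. Mir338 overlaps Mir3065, likewise on the opposite strand, by 87 bases. Of 1005 mouse hairpins in the table, 48 (4.78%) overlap a hairpin of the opposite strand. Mir338 lies within the span of Aatk, which encodes a kinase of the nervous system, on the strand of that gene. Mir219a-2 lies within the span of Cercam on the strand opposite to it. No probe set of Mir219b or Mir3065 could be named, so transcripts of the facing strands were not compared.

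miR-219a-2-3p had an RMA value of 9.66 in the control sample and 8.16 in the CPZ sample. RMA subtracts background, brings arrays that are fitted together towards a common distribution and gives each probe set 1 value on the log2 scale. The log2 difference, CPZ minus control, was -1.50. As linear signal, this was 810 in control and 286 in CPZ. Both values lay high in the range of the arrays, above 96.7% of all probe sets in control and above 95.3% in CPZ. The signal that was lower was thus measured well away from the dim end, where the median probe set had a value of 0.81 in control and 0.85 in CPZ. Probe sets of other organisms are part of these percentages, and detection calls were not used here.

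miR-338-5p had an RMA value of 7.74 in the control sample and 7.07 in the CPZ sample. The log2 difference was -0.67, and the linear signal was 214 in control and 134 in CPZ. Its values lay above 94.7% of all probe sets in control and above 93.7% in CPZ. The difference lay 0.09 (log2) past the 1.5-fold threshold of the study, against 0.92 for miR-219a-2-3p. Equally, adding a signal of 25.6 to both linear values would bring miR-338-5p to 1.5-fold, whereas 762 would be needed for miR-219a-2-3p. miR-338-5p was hence close to the edge of the list from which it was taken. The study also measured both members by quantitative PCR. It reports a weak decrease in demyelinated mice for the other member, but not for this one. That PCR rested on few samples per group, measured in triplicate. Weeks after CPZ was withdrawn, the study reports both members below control. The lower value of miR-338-5p at the end of CPZ feeding is therefore a result of the arrays alone.

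**Figure D1:**
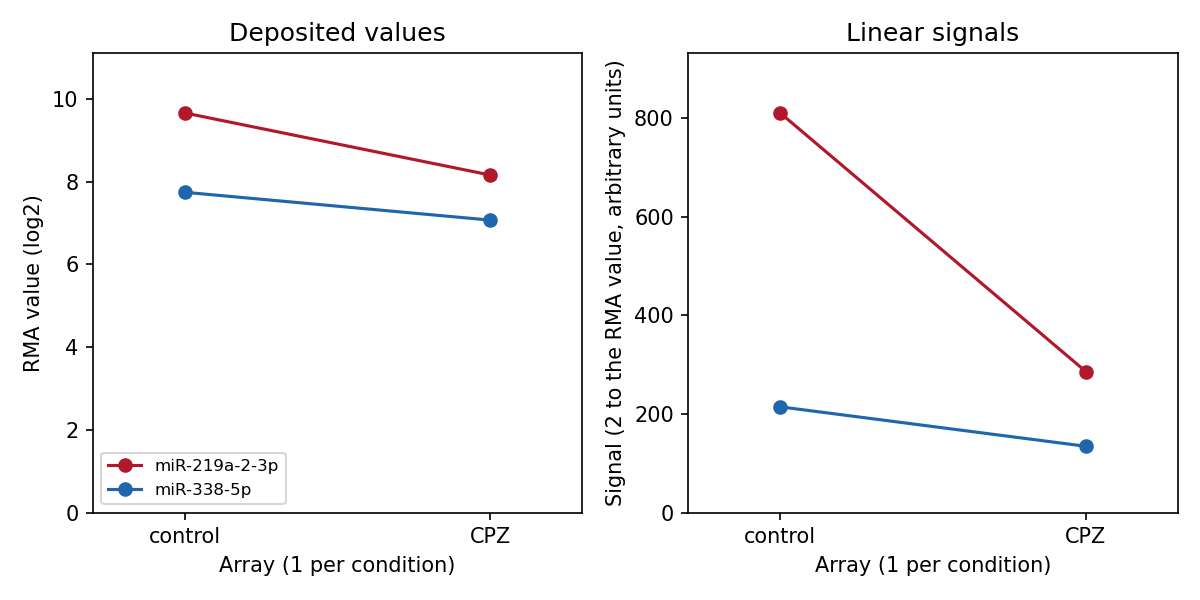
RMA values (left, log2) and linear signals (right, arbitrary units) of miR-219a-2-3p and miR-338-5p on the control and CPZ arrays, 1 array per condition and 1 point per array. Both lines fall, from 9.66 to 8.16 and from 7.74 to 7.07 on the log2 scale.

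On the arrays, the members thus moved the same way by different amounts. The log2 difference of miR-219a-2-3p was lower than that of miR-338-5p by a further 0.83, which is 1.776-fold. No error can be set beside this gap. In total brain RNA, fewer oligodendrocytes and less of the miRNA per oligodendrocyte cannot be told apart.

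Against all values of the table, being lower by 1.5-fold was rarer among bright pairs of values than over the whole range. A decrease of 1.5-fold or more was found for 9.71% of all 36249 probe sets and for 19.1% of the 6653 distinct pairs of values. Both members had a mean RMA value above 7, and for the 636 distinct pairs from that mean upwards the share was 1.10%. These shares stand beside the count of 2 of 2 members, which the choice of members fixed, and nothing is read from that count.

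Those 7 bright pairs can be listed in full. The pairs were not filtered by organism, so the ranks here and the shares above need not be over mouse miRNAs alone. By size of decrease, miR-219a-2-3p ranked 3 and miR-338-5p ranked 5. miR-200c-3p, a miRNA of epithelia, ranked 1, and an unnamed pair at 9.39 in control and 4.66 in CPZ ranked 2. An unnamed pair at 8.76 and 7.42 stood between the members, at -1.34. Below miR-338-5p came miR-145a-5p at -0.64, a miRNA of smooth muscle, and an unnamed pair at -0.63, the last one past the threshold. The first pair short of the threshold had values of 8.50 and 7.99, a difference of -0.51.

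Most bright pairs differed far less between the arrays. For the 147 pairs with a mean of 8 to 9, where miR-219a-2-3p lies, the median log2 difference was 0.03 and the 5th to 95th percentiles were -0.31 to 0.47. For the 185 pairs with a mean of 7 to 8, where miR-338-5p lies, the median was 0.07 and the percentiles were -0.30 to 0.55. Both members lay below the 5th percentile of their range, as a miRNA chosen for its fold change would. These percentiles describe the spread among probe sets on the arrays, not the spread between replicates.

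**Figure D2:**
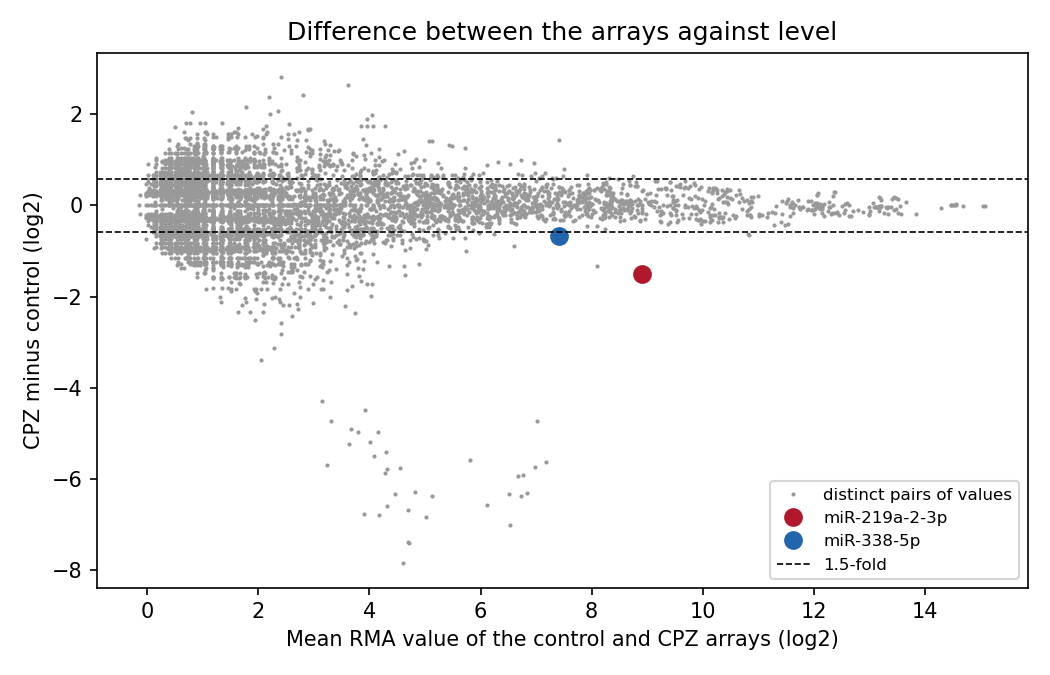
Log2 difference, CPZ minus control, against the mean RMA value for the 6653 distinct pairs of values (grey), with miR-219a-2-3p and miR-338-5p in colour and dashed lines at 1.5-fold. The cloud is wide at low means and narrow above 7, and miR-219a-2-3p at -1.50 lies further below it than miR-338-5p at -0.67.

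Only 3 other miRNAs with a role in the oligodendrocyte lineage could be named, and they differed in both directions. Of a list of 18 miRNAs with a role in the lineage, which includes both members, 5 could be named. Apart from the members these were 3 of 16, of which 1 was at least 1.5-fold lower and 2 at least 1.5-fold higher in CPZ. Increases of that size were found for 9.07% of all probe sets and for 15.1% of distinct pairs, beside the shares of decreases given above. The remaining 13, among them miR-219a-5p and miR-338-3p, were not analysed here. The lower one was miR-145a-5p, which also acts on the myelin gene regulator Myrf, at 11.16 in control and 10.52 in CPZ. miR-146a-5p, which promotes the differentiation of precursors and dampens Toll-like receptor signals, was higher, at 6.70 and 8.14. miR-7a-5p, which promotes the formation of oligodendrocyte precursors, was higher too, at 4.36 and 5.77. All 5 were named through lists that the study selected by fold change, so none could lie near 0, no median is given, and the counts are not independent evidence of a direction.

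Of 6 markers of neurons and of microglia or other myeloid cells, 1 could be named. It was miR-155-5p, which immune cells induce on activation, with a log2 difference of 2.646 from a low control value of 2.29. The neuronal markers, and any miRNA that would tell cerebellum from cerebrum by a fixed list, were not analysed here. Several miRNAs of epithelial and sensory cells differed by far more than the members. All 6 located miRNAs of the miR-200 family and the miR-183 cluster, a group chosen after its values were seen, were lower in CPZ, by 31.4-fold to 77.6-fold. Their RMA values were 6.65 to 9.99 in control and at most 4.37 in CPZ. The 2 arrays thus differed in markers of another tissue as well, in the direction of the members. The part of a changed mixture of cells or of dissected tissue in the lower values of miR-219a-2-3p and miR-338-5p was not tested.

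**Figure D3:**
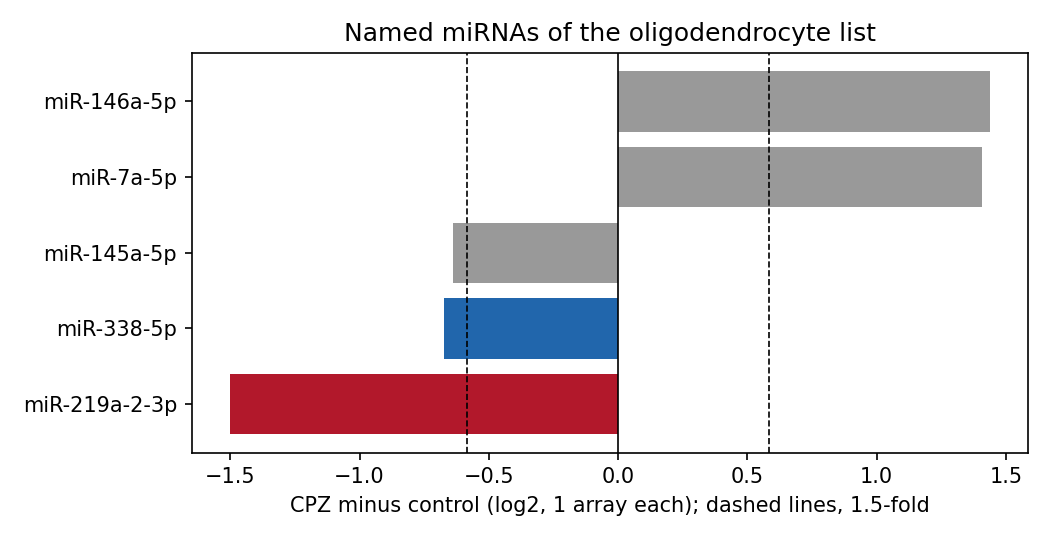
Log2 difference, CPZ minus control, for the 5 miRNAs of the oligodendrocyte list that could be named, with dashed lines at 1.5-fold and both members in colour. Bars to the left are miR-219a-2-3p, miR-338-5p and miR-145a-5p, and bars to the right are miR-7a-5p and miR-146a-5p.

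Among the 67 other located miRNAs, those with the log2 difference nearest to that of miR-219a-2-3p were miR-193a-5p at -1.29, miR-32-3p at -1.84 and miR-669k-5p at -1.06. The gaps were 0.21, 0.34 and 0.45, and the mean RMA values of the 3 were 4.89, 3.17 and 4.06. All 3 were thus much dimmer than miR-219a-2-3p. For miR-338-5p they were miR-7224-3p at -0.68, miR-3097-5p at -0.65 and miR-145a-5p at -0.64, with gaps of 0.005, 0.02 and 0.04. Of these, miR-145a-5p was bright, with a mean of 10.841, and the other two had means of 4.12 and 3.54. Likeness here is over 2 arrays and is no sign of shared function.

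The difference of each member was recomputed under 5 other treatments of the values. miR-219a-2-3p ranged from -1.32 to -1.565 and stayed past 1.5-fold in all 5. miR-338-5p ranged from -0.49 to -0.74 and fell short of 1.5-fold in 1 of them, where a signal of 64 was added to both linear values, at 1.40-fold. The gap between the members was 0.77 to 0.84 in size throughout. Median centring could not change this gap, because it takes 1 constant from each array.

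**Figure D4:**
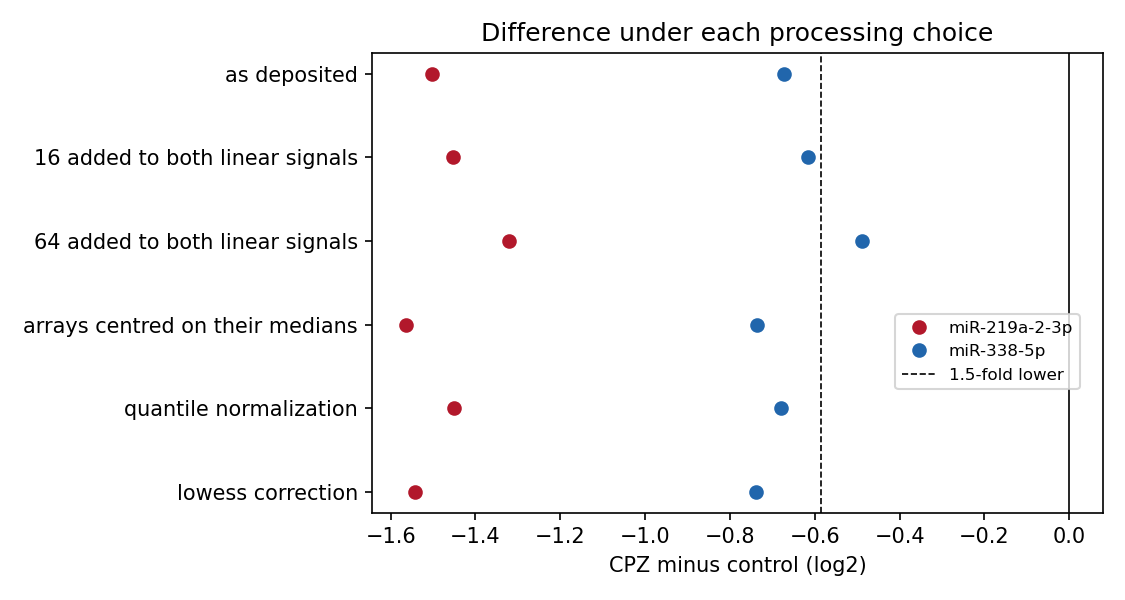
Log2 difference, CPZ minus control, of both members for the deposited values and 5 other treatments, with a dashed line at 1.5-fold lower. miR-219a-2-3p stays between -1.32 and -1.565, while miR-338-5p crosses the dashed line, to -0.49, when 64 is added.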

How the data were processed

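Total RNA was labelled and hybridized by the authors to Affymetrix miRNA 4.0 arrays, and probe sets were summarized with RMA in Affymetrix Power Tools. Tool versions are not given in the sources used here. The deposited table gives these log2 values for 36249 probe sets. Both arrays entered a joint RMA fit, so their values depend on each other. Samples were grouped by their treatment labels.

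The log2 difference (CPZ minus control), the mean and the volume were computed per probe set. Printed fold changes and volumes of 69 miRNAs served only to name probe sets. Calls used a 1.5-fold threshold, as the study did for its lists. No test is possible with 1 array per condition, and precision is limited by the number of arrays. The members and the lists were chosen with earlier results of these data known. The text names the members, the list members that could be located and, for each member, the 3 located miRNAs with the nearest difference. The figures at the level of 7 and the opposite-strand overlaps were chosen after values were seen.

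Alternatives were a signal of 16 or 64 added, median centring over distinct pairs averaging 5 or more, quantile normalization, lowess (span 0.3), thresholds of 1.25 and 2, and tolerances of 0.00005 and 0.002. Functions were tested on simulated data. Python 3.11.15, numpy 2.4.6, pandas 2.3.3, statsmodels 0.14.6, matplotlib 3.10.9 and ViennaRNA 2.7.2 were used.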

Additional observations from a re-analysis of the deposited data

How the results depend on the processing

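No paired analysis was possible because each condition has 1 array, and no array could be left out. With 64 added to both linear signals, miR-338-5p was 1.40-fold lower (log2 difference -0.49), under the threshold, and 1 of the 2 members stayed past it. A threshold of 2 also left 1 member, miR-219a-2-3p. The background depended strongly on the filter. The share of values at least 1.5-fold lower, 19.1% of distinct pairs, was 9.71% over all probe sets, 2.56% at a mean of at least 5 and 1.10% at a mean of at least 7. It was 6.33% at a threshold of 2 and 1.20% with 16 added. The difference of miR-219a-2-3p and the gap between the members kept their direction in all 5 recomputations. An equal signal added to both arrays, 16 or 64, can shrink the difference of a miRNA but cannot reverse it. For the gap, median centring could give no other value. The other 7 settings of the count gave 2 members. Among them, the looser threshold could give no other count, because both members pass 1.5-fold. Nor could the tighter or the wider tolerance, because both members matched well within the one and no other probe set lay within the other. The count of 2 at the main setting was itself fixed by the choice of members. Without detection calls, the signal over background of either member is not known.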
